A study of Homo sapiens with 8 samples.

Results

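The m6A peaks of human chromosomes 4, 13 and 18 in HepG2 cells are described here. Every peak on these 3 chromosomes was taken from the lists of 4 samples, and peaks of different samples were joined into 1 region wherever they had at least 1 base in common. The rule uses only the chromosome of a peak and none of its measured values. It gave 825 of the 12221 regions of the series (6.75%), made from 510 and 576 peaks of siControl replicates 1 and 2 and 391 and 567 peaks of siMETTL3 replicates 1 and 2. Chromosome 4 held 411 of the regions, chromosome 13 held 226 and chromosome 18 held 188. The 19 other autosomes, which held 11075 regions, serve as the comparison throughout.

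HepG2 is an established human liver cancer line, used here at the labelled passage of 10-15. The siControl group was transfected with control siRNA and the siMETTL3 group with siRNA against METTL3, and cells of both were harvested 48 h later. Poly(A) RNA was cut to fragments of roughly 100 nt and pulled down with an antibody to m6A, and peaks were called in each sample on its own. Both groups had 2 replicates. No source used here says whether the replicates were separate cultures, so p-values measure only the spread between these samples, which may be technical. HepG2 cells carry extra copies of some chromosomes, and chromosome copy number was not measured here. The lists hold no expression values, so neither the loss of METTL3 nor the identity of the line was checked.

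N6-methyladenosine is a methyl mark that a complex of METTL3 and METTL14 places on adenosines of RNA while it is being made in the nucleus. METTL3 is the catalytic subunit, and METTL14 helps to hold the RNA. The mark is known for its place in long internal exons and near the stop codon of mRNA, where reader proteins such as YTHDF2 bind it and shorten the life of the transcript. An m6A peak can be called only where a transcript is present, so genes set the ground on which peaks can lie. Chromosomes 4, 13 and 18 are known for long stretches of DNA with few genes, called gene deserts, that lie between islands of genes. They also carry genes of proteins that liver cells secrete. By the RefSeq table of GRCh38.p14 these include albumin (ALB), alpha-fetoprotein (AFP), the vitamin D binding protein (GC) and the fibrinogen chains (FGA, FGB and FGG) on chromosome 4. The table places the coagulation factors F7 and F10 on chromosome 13 and transthyretin (TTR), which carries thyroid hormone, on chromosome 18. No peak was given a gene, since the lists name none and no annotation of their build, hg19, was used. For the same reason regions are given by hg19 coordinates without strand and without their sequence.

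Over the whole series the lists held between 6888 and 8577 peaks per sample, with between 1945803 and 2426342 tags (sequenced fragments) inside them. Library depth is unknown from such lists, and the precision rests on the number of samples. The peak caller's false discovery rate was high, with a median over peaks between 54.4% and 72.0% by sample.

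m6A peaks were sparse on chromosomes 4, 13 and 18. Peak density was counted per Mb of peak span, which is the distance from the first to the last peak base of any sample on a chromosome. The 3 chromosomes together spanned 364.0 Mb and the other autosomes 2416 Mb. The density was 1.4 and 1.58 peaks per Mb in siControl replicates 1 and 2 and 1.07 and 1.56 peaks per Mb in siMETTL3 replicates 1 and 2. The other autosomes had 2.57, 3.05, 2.72 and 3.22 peaks per Mb in the same order. All 4 values of the gene-poor chromosomes lay below all 4 values of the other autosomes. The means were 1.4 ± 0.234 and 2.89 ± 0.298 peaks per Mb (SD, n = 4), a 0.482-fold density, and the ratio lay between 0.395 and 0.545 in the single samples. In an exact two-sided sign-flip permutation test over the 4 samples p was 0.13, the smallest that 4 samples allow, so no comparison of this kind can pass a threshold of 0.05. The share of the span that lay under peaks was lower as well, with 1.63, 1.89, 1.38 and 1.74 kb covered per Mb against 3.35, 3.97, 3.73 and 3.95 kb.

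**Figure D1:**
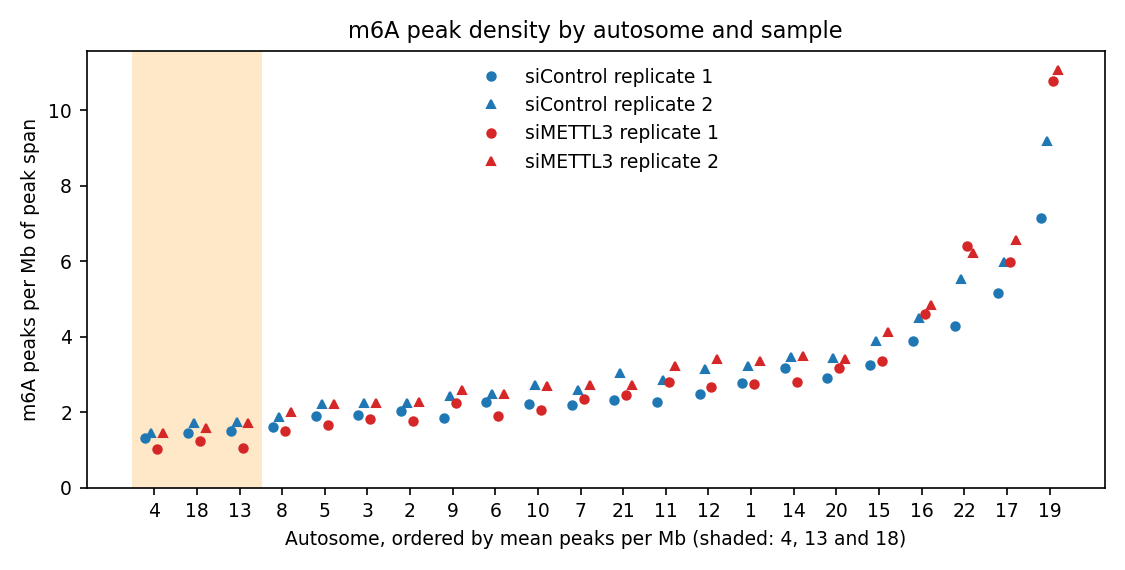
m6A peaks per Mb of peak span (vertical axis) on each of the 22 autosomes (horizontal axis, ordered by the mean of the samples), with 1 point per sample, circles for replicate 1 and triangles for replicate 2. The shaded chromosomes 4, 13 and 18 lie at the low end with means below 1.75, the mean of chromosome 8, while chromosome 19 had a mean of 9.54.

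Each of the 3 chromosomes shared this low density. Chromosome 4 had 1.33, 1.45, 1.02 and 1.47 peaks per Mb in the order of samples above, chromosome 13 had 1.51, 1.73, 1.06 and 1.72, and chromosome 18 had 1.45, 1.71, 1.23 and 1.58. They were the 3 lowest of the 22 autosomes in every sample, and chromosome 4 was the lowest in all 4. The ranges of the 3 chromosomes overlap, and chromosomes 13 and 18 changed places between samples.

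The low density went with the low number of genes. The RefSeq table lists 1378 protein-coding genes on the 3 chromosomes (770 on chromosome 4, 338 on chromosome 13 and 270 on chromosome 18) and 17748 on the other autosomes. This is 3.79 against 7.35 genes per Mb of span, and chromosomes 18, 13 and 4 had the lowest gene density of all autosomes, in that order. The gene counts come from a later assembly than the peaks and were used only as totals per chromosome. Per 100 protein-coding genes the gene-poor chromosomes had 37.0, 41.8, 28.4 and 41.2 peaks in the order of samples above. The other autosomes had 35.0, 41.5, 37.0 and 43.8. On this scale the ranges overlap, the gene-poor value was lower in 2 of 4 samples, and the log2 ratio was -0.10 ± 0.20 (SD, n = 4, exact two-sided sign-flip permutation test, p = 0.625). The chromosomes differed among themselves on it. Chromosome 4 had 32.6 ± 5.15 peaks per 100 genes, the second lowest mean of the autosomes, while chromosome 13 had 42.6 ± 9.0 and chromosome 18 had 43.1 ± 5.84 (SD, n = 4), which stood 17th and 18th from the lowest. How many of these genes are expressed in HepG2 was not measured here.

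A single peak on the gene-poor chromosomes was slightly shorter and held fewer tags, but its enrichment was not lower. The median peak was 987.5, 999.5, 1056 and 958 bases long against 1052.5, 1051, 1087 and 988 on the other autosomes. It was shorter in 4 of 4 samples, with a log2 ratio of -0.06 ± 0.02 (SD, n = 4, exact sign-flip permutation test, p = 0.13). This difference of a few percent is smaller than the differences between samples on the same chromosomes. Chromosome 18 did not share it in every sample. Its median peak was 1012, 1036, 1145 and 1053 bases long, more than on the other autosomes in both siMETTL3 samples. Averaged over samples the median was 999 bases on chromosome 4, 965.5 on chromosome 13 and 1061.5 on chromosome 18. Chromosomes 5, 12 and 15 had 969, 978 and 982 bases, shorter than chromosome 4. Long regions were rarer: 21 of 825 merged regions (2.55%) exceeded 3 kb, against 4.98% on the other autosomes, and the longest measured 7529 bases against 13307.

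Tags per kb of peak were 142, 158, 166 and 129 at the median on the gene-poor chromosomes and 164, 170, 180 and 140 on the others. These counts belong to each sample's own peaks and were not scaled for depth, so only the 2 values of a sample can be set against each other. They were lower on the gene-poor chromosomes together in 4 of 4 samples, with a 0.908-fold mean ratio (log2 ratio -0.14 ± 0.05, SD, n = 4, exact sign-flip permutation test, p = 0.13). Chromosome 18 alone went the other way in siMETTL3 replicate 1, with 197 against 180.

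Fold enrichment is the peak caller's ratio of pulled-down over background signal. Its median was 4.68, 4.69, 4.38 and 4.96 on the gene-poor chromosomes and 4.49, 4.58, 4.37 and 4.83 on the others. The difference was small but had the same direction in 4 of 4 samples (log2 ratio 0.03 ± 0.02, SD, n = 4, exact sign-flip permutation test, p = 0.13). The direction was no longer shared by all 4 samples without chromosome 13 or 18, without chromosomes 14, 17 and 20 among the others, or with equal numbers of peaks per sample (exact sign-flip permutation test, p = 0.25 in each). The median score, which is -10 times log10 of the p-value, was 118.7, 119.1, 112.2 and 108.7 against 115.9, 122.0, 110.3 and 108.6. Here the direction differed between samples (exact sign-flip permutation test, p = 0.75).

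The distance from one peak to the next was wider on the gene-poor chromosomes. Its median was 141 and 119 kb in siControl replicates 1 and 2 and 176 and 117 kb in siMETTL3 replicates 1 and 2. On the other autosomes it was 90.6, 71.3, 68.6 and 61.4 kb. The ratio averaged 1.89 (log2 ratio 0.92 ± 0.32, SD, n = 4, higher in 4 of 4, exact sign-flip permutation test, p = 0.13). The close neighbours differed less than the wide gaps. Distances under 10 kb made up 14.4%, 16.1%, 12.6% and 16.5% of the distances on the gene-poor chromosomes and 16.5%, 18.1%, 18.3% and 19.2% elsewhere. Distances over 1 Mb made up 17.4%, 15.5%, 21.6% and 15.4% against 9.49%, 7.76%, 8.52% and 7.19%. Among the other autosomes, chromosome 8 alone had shares near those of the gene-poor set, with 17.5%, 14.7%, 19.1% and 13.9%.

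**Figure D2:**
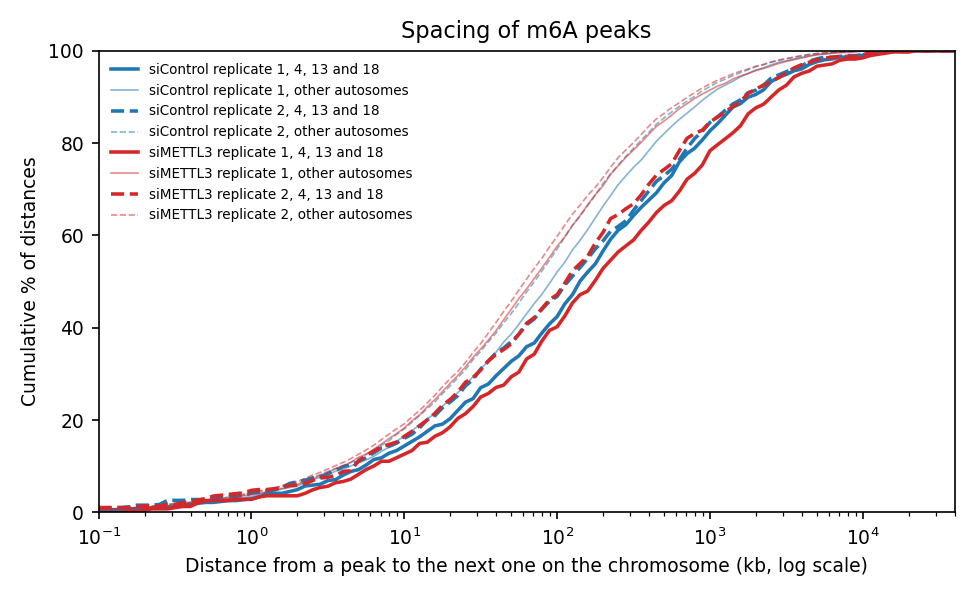
Cumulative share of the distances between neighbouring peaks (vertical axis, %) up to a given distance (horizontal axis, kb, log scale), with 1 line per sample, thick for chromosomes 4, 13 and 18 and thin for the other autosomes. The thick lines lie right of the thin line of the same sample over most of the range, with medians between 117 and 176 kb against 61.4 to 90.6 kb.

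Many stretches held no peak at all. Of 365 windows of 1 Mb on the gene-poor chromosomes, 191 and 179 were empty in siControl replicates 1 and 2, and 215 and 192 in siMETTL3 replicates 1 and 2. These are 52.3%, 49.0%, 58.9% and 52.6% of the windows, against 37.3%, 35.9%, 42.0% and 36.2% of the 2425 windows of the other autosomes. The difference was 15.4 ± 1.69 percentage points (SD, n = 4, higher in 4 of 4, exact sign-flip permutation test, p = 0.13). Most of the empty windows were the same ones in every sample, since 169 of the 365 (46.3%) held no peak in any of the 4, against 758 of 2425 (31.3%) elsewhere. Distances over 1 Mb between merged regions took up 69.9% of the span of the gene-poor chromosomes and 53.7% of the span of the others.

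The longest stretches without a region were on chromosome 13. They were chr13:80912091-95055126 with 14.1 Mb and chr13:60385243-73320500 with 12.9 Mb. On chromosome 4 the longest was chr4:27025684-37828193 with 10.8 Mb, followed by chr4:57845369-68379722 with 10.5 Mb, and on chromosome 18 it was chr18:36788160-43429511 with 6.64 Mb. None of these was the longest of the autosomes, which was a stretch of 27.8 Mb on chromosome 9.

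Where peaks did occur on these chromosomes, they were often near the ends. Within 5 Mb of either end of the span lay 167 of the 825 regions, which is 20.2% of the regions on 8.24% of the span. The density there was 5.57 regions per Mb against 1.97 per Mb in the inner part. The other autosomes had a like pattern, with 9.14 and 4.20 regions per Mb. The ends were not equal: on chromosome 4 the first 5 Mb held 60 regions and the last 5 Mb held 15, on chromosome 13 they held 22 and 35, and on chromosome 18 they held 16 and 19. The short arm of chromosome 13 carries ribosomal RNA genes and no peak, so its first 5 Mb begins on the long arm. The 1 Mb windows with most regions lay at the crowded ends. They were chr4:419547-1419546 with 20 regions, chr13:113409708-114409707 with 18 and chr18:77158320-78158319 with 15, although the span fills only 0.847 Mb of this last window, while the most crowded window of the other autosomes, on chromosome 16, had 39.

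Next the regions were compared between samples. A peak was called in all 4 samples in 257 of the 825 regions, which is 31.2% (95% Wilson interval 28.1 to 34.4), against 31.7% of all regions of the series. Another 270 regions (32.7%) had a peak in a single sample, against 31.1% in the series. Sharing on the gene-poor chromosomes was thus near the background, and the intervals cover counting error only. By chromosome the share in all 4 samples was 29.2% on chromosome 4, 33.2% on chromosome 13 and 33.0% on chromosome 18. Regions of all 4 samples were the stronger ones, with a median of 104.9 for the lowest score among their samples, against 68.0 for the regions of a single sample.

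The overlap of peak sets within a group was also close to that elsewhere. The Jaccard index (bases under peaks of both samples over bases under peaks of either) was 0.617 for the siControl pair and 0.562 for the siMETTL3 pair. Between samples of different groups it ran from 0.481 to 0.585. The ranges of within-group and between-group values overlap.

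The 4 samples did not contribute alike. siMETTL3 replicate 1 had a peak in 257 of the 335 regions found in all of the other 3 samples, which is 76.7%, against 81.6% on the other autosomes. The same share was 88.3% for siControl replicate 1, 95.5% for siControl replicate 2 and 95.5% for siMETTL3 replicate 2. On the other autosomes these samples had 83.4%, 94.8% and 93.3%, so siControl replicate 1 was close to siMETTL3 replicate 1 there. Regions with a peak in siMETTL3 replicate 1 alone made up 4.0% of the regions, against 7.69% on the other autosomes. Several of the values that follow rest on this sample, and these are also given without it.

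**Figure D3:**
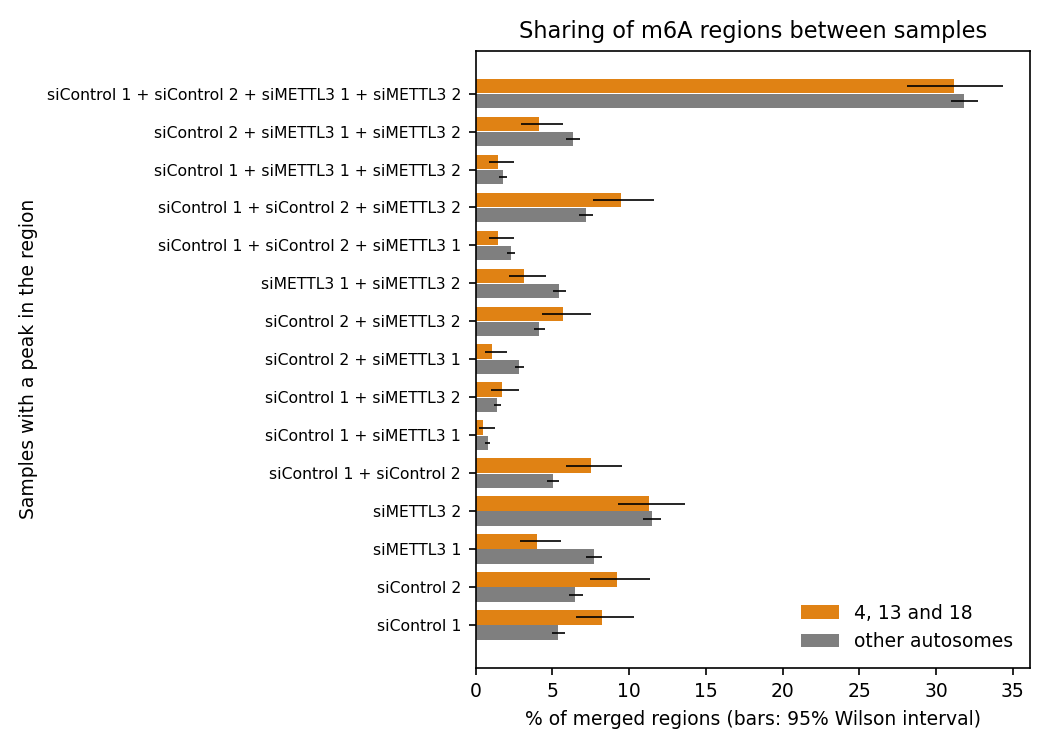
Share of merged regions (horizontal axis, %) by the samples that had a peak there (vertical axis), for chromosomes 4, 13 and 18 and for the other autosomes, with bars for 95% Wilson intervals, which cover counting error only. Regions of all 4 samples made up 31.2% and 31.8%, and regions of both siControl samples alone 7.52% and 5.03%.

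The comparison of siMETTL3 with siControl asks how the knockdown of the methyltransferase changed m6A peaks on the gene-poor chromosomes. The number of peaks was 543 ± 46.7 in siControl and 479 ± 124 in siMETTL3 (SD, n = 2 each). The difference of -64 lay within the spread of the siMETTL3 replicates (exact permutation test, two-sided, p = 0.667). With 2 samples in each group this test cannot give a p below 0.33. siMETTL3 replicate 1 had the fewest peaks, with 391, while the 567 of siMETTL3 replicate 2 lay between the 510 and 576 of siControl. Without siMETTL3 replicate 1 the difference was 24. The length covered by peaks was 641 ± 67.5 kb in siControl and 568 ± 94.2 kb in siMETTL3 (SD, n = 2 each, exact permutation test, p = 0.667). The difference was -73050.5 bases and became -6472 bases without siMETTL3 replicate 1, -25341.5 without siControl replicate 2, -120760 without siControl replicate 1 and -139629 without siMETTL3 replicate 2. In bulk RNA, less methylation, a lower level of the transcript and fewer cells that express it cannot be told apart by whether a peak is called.

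As a share of a sample's autosomal peaks, the peaks of chromosomes 4, 13 and 18 had lower values in both siMETTL3 samples. They made up 7.59% in siControl replicate 1 and 7.25% in siControl replicate 2, and 5.62% in siMETTL3 replicate 1 and 6.80% in siMETTL3 replicate 2. The groups do not overlap. The difference was -1.22 percentage points, from 7.42 ± 0.241% to 6.21 ± 0.833% (SD, n = 2 each, exact permutation test, p = 0.33, the smallest possible), and it was -0.63 points without siMETTL3 replicate 1. Each of the 3 chromosomes had the same order of groups. Chromosomes 1, 2, 3, 5, 6, 10 and 14 had it as well, and no other autosome did. The share of chromosome 4 was 3.77% and 3.49% in siControl and 2.79% and 3.34% in siMETTL3. For chromosome 13 it was 2.14% and 2.09% against 1.45% and 1.98%, and for chromosome 18 it was 1.68% and 1.67% against 1.38% and 1.47%. Among peaks with a score of at least 300 the share was 7.95% and 7.40% in siControl and 4.80% and 6.59% in siMETTL3. The groups did not overlap there for the 3 chromosomes together, on counts of 80, 100, 47 and 64 peaks. This share was not split by chromosome. Of chromosome 18's own peaks, 13.27% and 12.03% in siControl and 16.67% and 11.38% in siMETTL3 reached that score, so its groups overlap. On chromosomes 4 and 13 the percentage of own peaks was lower in both siMETTL3 samples.

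The counts behind this share differed between the siMETTL3 samples. siMETTL3 replicate 1 had fewer peaks on the gene-poor chromosomes than either siControl sample, while its 6569 peaks on the other autosomes lay between the 6206 and 7365 of siControl. In siMETTL3 replicate 2 the peaks on the gene-poor chromosomes lay within the siControl range, and its lower share came from the 7776 peaks on the other autosomes, more than in either siControl sample. By label number, siMETTL3 replicate 1 had 23.3% fewer peaks on the gene-poor chromosomes than siControl replicate 1 and 5.85% more on the others. siMETTL3 replicate 2 had 1.56% fewer than siControl replicate 2 and 5.58% more on the others. The numbers are only those of the labels, which state no pairing, and the signs depend on which samples are set against each other. Between the group means the number of peaks differed by -10.8% on chromosome 4, -14.2% on chromosome 13 and -11.0% on chromosome 18, the 3 lowest values of the 22 autosomes. This order held without siMETTL3 replicate 2 but not with any other sample left out. Without siControl replicate 1 chromosome 4 was 4th from the lowest with -14.6%, and without siControl replicate 2 chromosome 18 was 4th with -3.10%. Without siMETTL3 replicate 1 the values were 5.28%, 6.45% and 0%, the 4th, 7th and 1st from the lowest. In that setting all 3 lay below the 14.6% of the other autosomes together. Chromosomes 1, 2, 3, 5, 6, 7, 10, 14, 20 and 21 lay below that value too. At the other end of the order with all 4 samples, chromosome 19, the most gene-rich, had 33.8% more. Over the 22 autosomes the log2 change between group means had a Pearson r of 0.82 and a Spearman rho of 0.82 with gene density. Without chromosomes 4, 13 and 18 these were 0.80 and 0.72 over 19 chromosomes. Without siMETTL3 replicate 1 they were 0.75 and 0.62 over all 22 and 0.72 and 0.51 over the 19. These are descriptions across chromosomes that share the same 4 libraries.

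**Figure D4:**
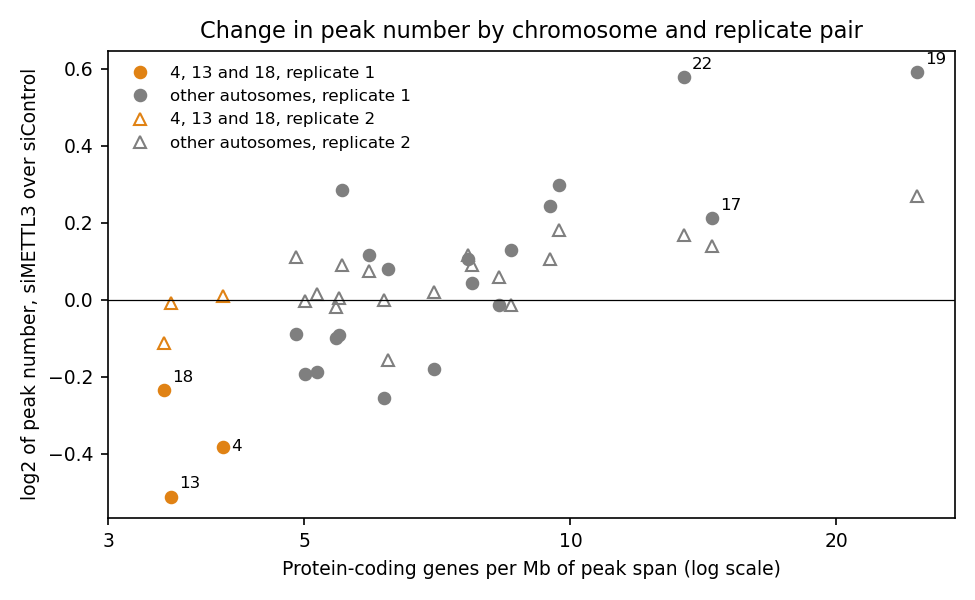
Log2 ratio of the number of peaks in siMETTL3 over siControl (vertical axis) against protein-coding genes per Mb of peak span (horizontal axis, log scale), with 1 filled circle per autosome for the replicates numbered 1 and 1 open triangle for those numbered 2. Chromosomes 4, 13 and 18 (orange) lie at the left and below 0 with replicate 1, where they had 23.3% fewer peaks together, and near 0 with replicate 2, where they had 1.56% fewer.

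Regions with peaks in 1 group only went the same way. On the gene-poor chromosomes 62 regions had a peak in both siControl samples and in no siMETTL3 sample, which is 7.52% (Wilson interval 5.91 to 9.52) against 5.2% of all regions of the series. The reverse held for 26 regions, which is 3.15% (2.16 to 4.58) against 5.25%. The ratio of the second count to the first was 0.419 on these chromosomes and 1.08 on the other autosomes. Without siMETTL3 replicate 1 these ratios were 1.61 and 2.31. Of the 62 regions 29 were on chromosome 4, 18 on chromosome 13 and 15 on chromosome 18, and of the 26 regions 15, 6 and 5. Most of them were peaks of low score, since both scores reached 100 in 12 of the 62 and in 3 of the 26.

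The region of siControl alone with the highest scores was chr18:3602435-3604506. It had a fold enrichment of 5.94 and 6.31 from 226 and 258 tags. It was followed by chr4:140651378-140652565 with a fold enrichment of 8.23 and 6.36 and by chr13:48985298-48987374 with 4.21 and 3.16. Of the regions of siMETTL3 alone, chr4:3767062-3770355 had the highest scores, 401.16 and 680.21. Its 3430 and 2367 tags were the most of any peak on the 3 chromosomes, but its fold enrichment was only 1.90 and 2.57. The next were chr4:7044698-7045775, with a fold enrichment of 4.10 and 5.00, and chr13:51289214-51290239, with 7.89 and 7.84 from 88 and 67 tags. An absent call says only that no peak reached the list's lowest score of 50 there.

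Enrichment was compared over the 257 regions with a peak in all 4 samples. Its median on the log2 scale was 2.27 and 2.36 in siControl replicates 1 and 2 and 2.20 and 2.40 in siMETTL3 replicates 1 and 2. The groups overlap and the difference was -0.01 (exact permutation test over the samples, p = 1.0). Against the change on the other autosomes it was -0.02. In the single chromosomes the medians differed by -0.10 on chromosome 4, -0.03 on chromosome 13 and 0.07 on chromosome 18. The enrichment of a region was higher in siMETTL3 in 115 and lower in 142 of the 257 regions by the group means of log2 values, against 1837 higher and 1690 lower on the other autosomes, and the differences ran from -0.78 to 0.67 on the log2 scale.

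By limma, 0 of the 257 regions changed at a Benjamini-Hochberg adjusted p of 0.05, and neither did any of the 3875 regions of the series (0%). The smallest adjusted p on these chromosomes was 0.404. An unadjusted p under 0.05 was found for 39 of the 257, which is 15.2% against 9.6% in the series, with 17 higher and 22 lower in siMETTL3. In 54 regions (21.0%, against 20.6% in the series) both siMETTL3 values were above both siControl values, and in 62 (24.1%, against 21.1%) both were below. The shares of 21.0% and 24.1% are near the background, whereas the 15.2% is above the 9.6% of the series. Chromosome 18 had 18 such higher and 9 lower regions, chromosome 4 had 23 and 34, and chromosome 13 had 13 and 19.

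**Figure D5:**
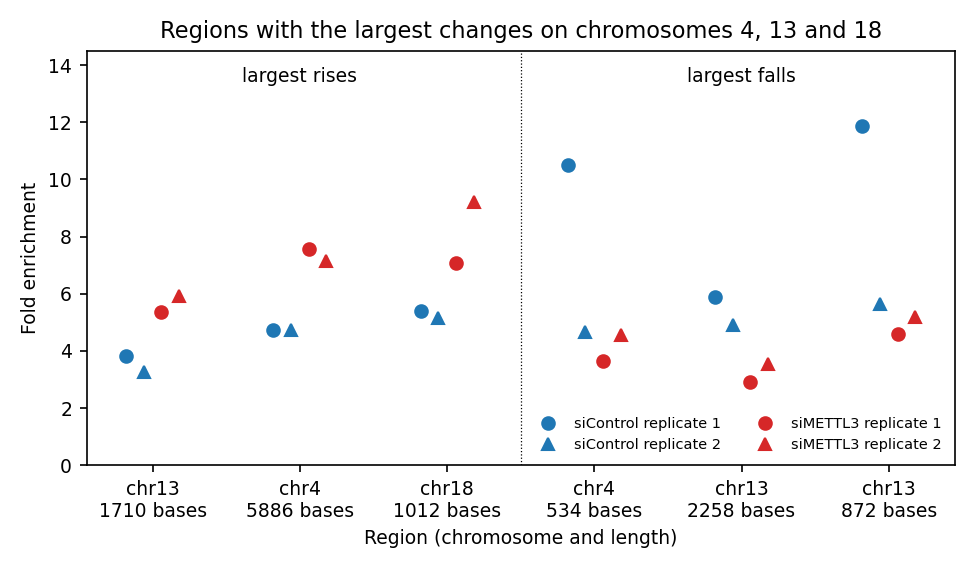
Fold enrichment (vertical axis, linear) in each of the 4 samples for the 3 largest rises and 3 largest falls among the shared regions of chromosomes 4, 13 and 18 whose groups do not overlap (horizontal axis). None passed limma's adjusted threshold of 0.05, and in 2 of the 3 falls a single siControl replicate 1 value above 10 stands apart from the rest.

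The region with the largest rise was chr13:24797204-24798913. Its fold enrichment was 3.82 and 3.26 in siControl and 5.35 and 5.92 in siMETTL3, a log2 difference of 0.67 with a standard error of 0.17 (limma, adjusted p = 0.404). The second was chr4:1193162-1199047, a long region of 5886 bases near the start of chromosome 4. It had 4.75 and 4.73 in siControl and 7.58 and 7.16 in siMETTL3, and the log2 difference was 0.64 ± 0.16 (SE, limma, adjusted p = 0.404). siMETTL3 replicate 1 had 2 peaks in it and the other samples 1, so the compared intervals differ. Its tags, which are not scaled for depth, went the other way, with 930 and 1091 in siControl and 478 and 397 in siMETTL3. The third, chr18:13645017-13646028, had a fold enrichment of 5.39 and 5.17 against 7.09 and 9.21, and 68 and 73 tags against 112 and 110.

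The region with the largest fall was chr4:140291216-140291749, with a fold enrichment of 10.5 and 4.68 in siControl and 3.66 and 4.55 in siMETTL3. Its difference of -0.78 ± 0.36 (SE, limma, adjusted p = 0.539) comes mainly from siControl replicate 1. The same holds for chr13:115056817-115057688, with 11.87 and 5.65 against 4.61 and 5.20. The fall of chr13:31231504-31233761 had closer replicates, with 5.89 and 4.91 in siControl and 2.91 and 3.55 in siMETTL3 (-0.74 ± 0.19, SE, limma, adjusted p = 0.404).

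The regions described next were chosen among those with a peak in all 4 samples. The highest mean enrichment on chromosome 4 was that of chr4:146435444-146436361, with a fold enrichment of 11.69, 10.48, 11.24 and 9.31 in siControl replicates 1 and 2 and siMETTL3 replicates 1 and 2. On chromosome 13 it was chr13:77574304-77575362, with 13.06, 8.45, 8.49 and 10.95. On chromosome 18 it was chr18:8824550-8826561, with 7.43, 12.67, 8.91 and 6.90. The groups overlap in each of these regions.

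Among the shared regions, those with most tags had lower enrichment than these. On chromosome 4 the same shared region, chr4:978445-985973, had most tags and was the longest, with 7529 bases and 1682, 2250, 1422 and 1165 tags. Its fold enrichment was 3.46 and 3.88 in siControl and 5.06 and 5.65 in siMETTL3, so the groups do not overlap. It was called as 1 peak in each siControl sample, with scores of 82.07 and 62.05, and as 2 peaks in each siMETTL3 sample, with highest scores of 839.02 and 481.55. The compared intervals therefore differ between the groups. Near the end of chromosome 13 lay both its region with most tags, chr13:113772330-113775093, and its longest, chr13:113776870-113782312. The first had a fold enrichment of 3.19 and 3.99 in siControl and 4.84 and 5.42 in siMETTL3. The second, 5443 bases long, had 4.82 and 5.15 in siControl and 6.20 and 7.80 in siMETTL3. In both the siMETTL3 enrichment values were the higher ones, but siMETTL3 replicate 2 had 2 peaks in the second region, so its intervals differ there. The tags, which are not scaled for depth, were 1018, 1187, 680 and 580 in the first and 359, 739, 116 and 280 in the second, in the order of samples above. On chromosome 18 the region with most tags, chr18:77893372-77897323, went the other way, with a fold enrichment of 4.19 and 4.27 in siControl and 3.56 and 3.03 in siMETTL3. The longest region there, chr18:72997253-73001574, measured 4322 bases and had 5.31 and 5.75 against 6.44 and 5.96. None of these passed limma's adjusted threshold.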

How the data were processed

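The 4 deposited peak lists of immunoprecipitated samples were used, and the input libraries only as the authors' peak calling had used them. The submitters' processing notes name CASAVA 1.8.2, MACS 1.4.2 and hg19; the aligner is not given in the sources used here. Per the file headers, the authors deposited for each peak a tag count (not normalized), a score of -10 times log10 of its p-value that begins at 50, a fold enrichment ratio and an FDR in percent.

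Peaks were read as 1-based intervals and merged at an overlap of 1 base. Where a sample had several peaks in a region, the highest enrichment was taken. Group values were compared by exact permutation tests over samples. Log2 fold enrichment, without a pseudocount, was fitted with limma over all shared regions, after a test on simulated data. The chromosomes, lists and alternatives were chosen with earlier results of these data known. Regions were named by rule: per chromosome the highest enrichment, most tags and greatest length among regions of all 4 samples, the densest window and longest empty stretch, and over the 3 chromosomes the 3 largest rises, falls and, by score, one-group regions per direction. Of the empty stretches, 2 shorter ones were named beyond the rule. Alternatives were stricter scores or FDR, other spans, windows and scalings, and each chromosome or replicate left out. Replicate numbers come from labels that state no pairing. Python 3.11.15, numpy 2.4.6, pandas 2.3.3, scipy 1.17.1, matplotlib 3.10.9, R 4.3.3 and limma 3.58.1 were used.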

Additional observations from a re-analysis of the deposited data

How the results depend on the processing

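The lower peak density, higher share of empty windows, shorter peaks, fewer tags per kb and higher median enrichment on chromosomes 4, 13 and 18 kept the direction of their mean under the alternatives run for each, and so did the lower share of autosomal peaks in siMETTL3, between -1.81 and -0.63 percentage points. The log2 density ratio lay between -1.11 and -0.10, the latter per protein-coding gene. The difference in number of peaks, -64, ran from -152 to 24 with each replicate left out and reversed to 24 without siMETTL3 replicate 1. The difference in median log2 enrichment, -0.01, ran from -0.12 to 0.0714 with each replicate left out and reversed to 0.02 without siControl replicate 2, to 0.0714 without siMETTL3 replicate 1 and to 0.0074 without chromosome 4. Relative to the other autosomes it ran from -0.0544 to 0.0022 with each replicate left out, was -0.0622 without chromosome 18, and reversed to 0.0022 without siMETTL3 replicate 1 and to 0.0026 without chromosome 4. Regions of siMETTL3 alone, 26, fell to 17 at a score of at least 70, to 13 at an FDR of at most 50% and to 11 without chromosome 4, while the 601 of the other autosomes fell to 470 and 218 at those limits. Regions of siControl alone, 62, fell to 28 at that FDR and to 33 without chromosome 4, while the 557 of the other autosomes fell to 292 at that FDR. With a replicate left out, which was added after the data were seen and loosens the rule, these counts ran from 38 to 119 and from 74 to 140, against 795 to 1870 and 811 to 1351 on the other autosomes. The share of regions in all 4 samples was 24.9% at that FDR. limma called 0 regions under every alternative, with unadjusted p under 0.05 in 17 to 41 regions with a replicate left out, which is 5.84% to 12.2% against 4.61% to 11% in the series. Whether the numbers 1 and 2 pair the samples is unknown. Deviations of same-numbered samples correlated at 0.033 over the 257 regions, and 1 correlation from 4 libraries cannot settle it. A replicate block cannot change the differences of -64 peaks, -1.22 points and -0.01, since the mean of paired differences equals the difference of means. Under it limma called 0 regions, with a smallest adjusted p of 0.157 and 51 unadjusted p under 0.05 (19.8% against 12.8%). The lists hold no depth, so what a deeper library would add was not tested.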
